A study of Salmo salar with 20 samples.

Results

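The genes described here are immune effectors, proteases and their inhibitors, T-cell genes and genes filed under exocytosis, as listed for the distal intestine of Atlantic salmon that received soyasaponins with pea protein concentrate. They are the entries under 3 headings of the study's gene tables, 31 in all, and an entry was kept when exactly 1 probe of the array, shared with no other entry, carried its listed fold change and error in the authors' processed pea protein values. This held for 30 of the 31 entries among 21322 probes on the array, 28 listed as higher and 2 as lower. They comprise 15 of 16 effectors, 11 of 11 proteases, inhibitors and T-cell genes, and 4 of 4 genes under exocytosis. The entry that was dropped, an Fc gamma receptor, fitted 2 probes. Names therefore rest on this match of values and not on an annotation of the probes. The match allowed a distance of 0.0051 and the 30 genes lay within 0.0049, while the next probe lay just outside it for CD86 (0.0052), close to it for C1q-like protein 4 (0.0057), RRP42 (0.0071) and Rrp46 (0.0084), and at a median of 0.0381 over the 30.

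The fish were post smolts with a mean weight of 270 g when they were placed in the tanks. They were fed for 80 days on diets in which 1 of 5 plant proteins replaced part of the fish meal protein, with saponins added. Corn gluten and pea protein concentrate made up a larger share of the dietary protein than horse bean, rapeseed and sunflower meal. The groups were pea protein concentrate (PPC + S), corn gluten (CG + S), horse bean meal (HBM + S), rapeseed meal (RSM + S) and sunflower meal (SFM + S), with 4 fish each. RNA of every fish was hybridized on a 2-colour array of its own against a pool of RNA from fish on the same plant protein without saponins, so that 20 arrays were analysed and each value is a log2 ratio of fish over pool. A single pool stands for each control group, which leaves the spread between control fish out of every test, and a fish on PPC + S is never set directly against a fish on another diet. The fish of a group came from duplicate tanks that the labels do not name. The distal intestine is bulk tissue, so fewer or more cells of a type cannot be told apart from less or more RNA in each cell. The labelled tissue was not checked against markers of its cell types, nor were other complement, metalloproteinase or co-stimulation genes examined, because no table used here pairs probes with gene names.

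Complement is a cascade of plasma proteins that tags microbes and cells and can pierce their membranes. It can be started by C1q bound to antibody or by the alternative pathway, in which factor D cuts factor B and properdin stabilizes the enzyme that forms, and the chain ends with C6 and its partners in the membrane attack complex. Lectins bind sugars on microbial surfaces. Matrix metalloproteinases cut collagen and other matrix proteins and are held in check by tissue inhibitors, while T cells recognize antigen through their receptor and are tuned by co-stimulatory molecules. In salmonids, legume components in the feed are known to be able to inflame the distal intestine.

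A direction had to be settled before any value was read. According to the labels and methods, the fish carried Cy5 and the pool Cy3 on each array. Across 11753 spots, arrays 1 and 2 of each group ran with the authors' processed values and arrays 3 and 4 ran against them, with Pearson's r between 0.994 and 0.998 in size for the best-matching column. The best column was of the right diet for each of the 20 arrays, but its fish number was that of the array for only 8. In PPC + S, arrays 1, 2, 3 and 4 best matched the processed columns of fish 4, 2, 3 and 1. Fish numbers given here are those of the arrays, and which label is right is not known. Taken as stated, PPC + S arrays of opposite direction correlated at -0.47 to -0.55 over 20883 probes, against 0.86 between arrays 1 and 2 and 0.64 between arrays 3 and 4. Outside PPC + S such pairs did not run against each other as a rule. They correlated at -0.1 to 0.14 in CG + S and -0.02 to 0.15 in RSM + S. In HBM + S they had 0.21 to 0.29 and in SFM + S 0.12 to 0.36, which turning makes negative. Arrays 3 and 4 were turned in every diet, and outside PPC + S this rests on the match with the processed values alone. Values of fish 1 and 2 are the same either way, and those of fish 3 and 4 change sign if the dyes are taken as stated. The 2 directions are called dye layouts here, although the labels state only 1 layout and the other is inferred from the match. In PPC + S the 2 dye layouts coincide with fish 1 and 2 against fish 3 and 4, so layout and fish cannot be told apart there.

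In PPC + S the 28 genes listed as higher had a median log2 change of 1.12 and ranged from 0.67 to 3.28, while the median over all 17111 probes tested was 0.00. Single fish had medians of 1.68, 1.66, 0.61 and 0.80 for fish 1 to 4. The genes were selected on the fold change and p of these same PPC + S arrays in the study, so the PPC + S values are given as a description. All 4 fish lay on the listed side for 29 of the 30, where 19.7% of all probes had 4 fish higher and 18.7% had 4 fish lower. The exception was complement factor D in fish 3. By limma, a gene counted as past the limits when it differed from the pool by over 1.6-fold and its p, adjusted after Benjamini-Hochberg, was under 0.05. In PPC + S 13 of the 30 were past these limits, 11 higher and 2 lower, where 3.41% of all probes were (1.34% higher, 2.07% lower). Without adjustment the count was 29, where 6.69% of all probes were. With 1 fish left out the adjusted count was 1, 0, 4 and 1 (without fish 1, 2, 3 and 4). The shares of all probes were then 0.386%, 0.00584%, 1.09% and 0.164%. These counts follow from the selection of the genes on the same arrays, so nothing is read from them and no gene is set above another by them.

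**Figure D1:**
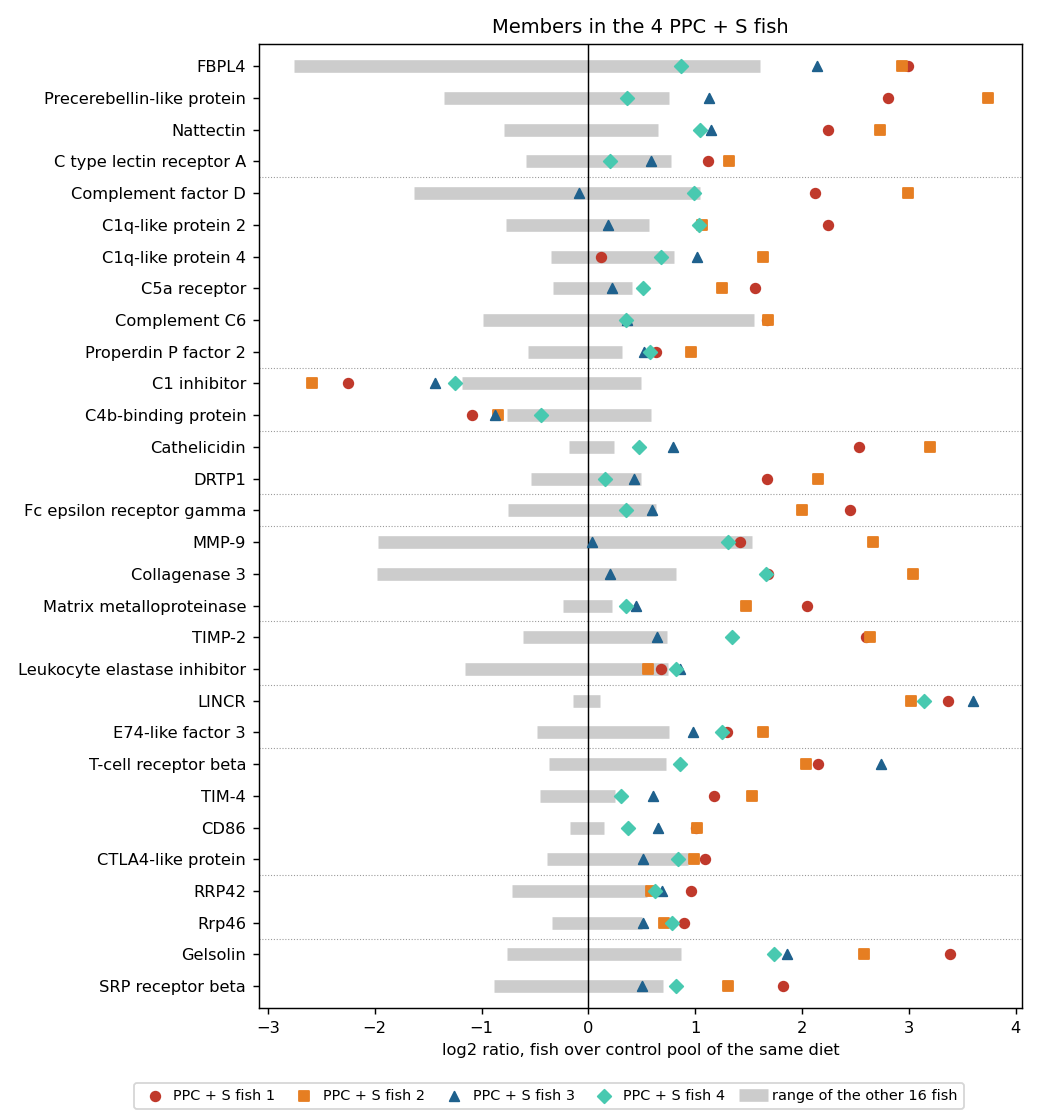
Log2 ratio of fish over pool (horizontal axis) for the 30 genes in the 4 PPC + S fish, 1 symbol per fish, with grey bars for the range over the 16 fish of the other diets (15 for E74-like factor 3) and dotted lines between roles. For 12 of the 28 genes listed as higher, all 4 symbols lie to the right of the grey bar. The bar of cathelicidin rests on values mostly near background.

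Among the lectins, FBPL4 had the largest mean in PPC + S. It had log2 ratios of 2.99, 2.94, 2.14 and 0.87 in fish 1 to 4, a mean of 2.24 ± 0.99 (SD, n = 4) or 4.71-fold. Precerebellin-like protein, known from trout as an acute-phase protein with a C1q domain, stood at 2.81, 3.74, 1.13 and 0.36, a mean of 2.01 ± 1.54, so that fish 4 was close to its pool while fish 2 was the highest value of any gene described here. Nattectin, a C-type lectin first named from toadfish venom, had 2.24, 2.73, 1.15 and 1.05 (mean 1.79 ± 0.83). Its fish all lay above the 16 fish of the other diets, which ended at 0.65. C type lectin receptor A was the smallest of the lectins, with 1.12, 1.32, 0.59 and 0.20 (0.81 ± 0.51), and its fish 3 and 4 fell within the range of the other diets, which ended at 0.77.

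The 6 complement proteins and receptors were all higher on average, with a median of 0.95. Factor D of the alternative pathway had log2 ratios of 2.12, 2.99, -0.09 and 0.99 in PPC + S, a 2.83-fold mean change with an SD of 1.34 on the log2 scale. One fish of the 4 thus did not share the difference. Properdin P factor 2 was small but even, with 0.63, 0.96, 0.52 and 0.58 (0.67 ± 0.20), and all 4 fish exceeded the highest of the other 16 fish, at 0.32. Complement C6 had 1.67, 1.68, 0.36 and 0.35 (1.02 ± 0.76), and only fish 1 and 2 lay above the other diets, where 1 CG + S fish reached 1.55. The receptor for the anaphylatoxin C5a, which draws leukocytes to sites of complement activation, had 1.56, 1.25, 0.22 and 0.51 (0.88 ± 0.62).

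The 2 C1q-like proteins, which share a domain with the starter of the classical pathway, did not follow each other. C1q-like protein 2 had 2.24, 1.06, 0.18 and 1.04 (1.13 ± 0.85) and was highest in fish 1. C1q-like protein 4 had 0.12, 1.64, 1.02 and 0.68 (0.86 ± 0.63) and was lowest in fish 1. Its pool was well above background on 3 of the 4 PPC + S arrays, and in the other diets the fish channel was so on at most 1 of 4 arrays.

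Both inhibitors of complement were lower in PPC + S in 4 of 4 fish. C1 inhibitor, a serpin that blocks the proteases of the C1 complex, had log2 ratios of -2.25, -2.59, -1.44 and -1.25, a mean of -1.88 ± 0.64 or a 3.69-fold lower level than the pool. All 4 values were below those of the 16 fish of the other diets, the lowest of which was -1.18, as 2.49% of all probes were. C4b-binding protein, in mammals a cofactor for the breakdown of C4b, had -1.09, -0.85, -0.87 and -0.44 (-0.81 ± 0.27), and fish 4 was within the range of the other diets.

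Cathelicidin, an antimicrobial peptide precursor, had 2.53, 3.20, 0.79 and 0.47 in PPC + S (1.75 ± 1.33). The probe was well above background for 4 of 4 fish but for the pool on 2 of 4 arrays, so the ratio depends on a pool value near background. In HBM + S, RSM + S and SFM + S the pool was well above background on 0 of 4 arrays and the fish on 1, 1 and 0, and values there, between -0.18 and 0.24, have no order. DRTP1, a trout protein named for its regulation during infection, had 1.67, 2.15, 0.43 and 0.16 (1.11 ± 0.96). The gamma chain of the Fc epsilon receptor, the signalling subunit of several Fc receptors in mammals, had 2.45, 2.00, 0.60 and 0.35 (1.35 ± 1.03). In these 3 genes fish 1 and 2 were far above fish 3 and 4.

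Of the 3 metalloproteinases, MMP-9, the gelatinase stored by neutrophils in mammals, had log2 ratios of 1.42, 2.67, 0.03 and 1.31 (1.36 ± 1.08). Collagenase 3, which cuts fibrillar collagen, had 1.68, 3.04, 0.20 and 1.66 (1.65 ± 1.16). Both were at the level of the pool in fish 3, as factor D was. The entry named only matrix metalloproteinase had another profile, 2.05, 1.48, 0.45 and 0.35 (1.08 ± 0.82), and its 4 fish lay above the other 16, which stayed between -0.24 and 0.22. Its pool was well above background on 2 of 4 HBM + S arrays and 3 of 4 in CG + S and RSM + S.

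TIMP-2, an inhibitor of metalloproteinases, had 2.60, 2.64, 0.64 and 1.35 in PPC + S (1.81 ± 0.98). In fish 3 it was above the pool while MMP-9 and collagenase 3 were close to it. Leukocyte elastase inhibitor, a serpin that blocks neutrophil proteases, had 0.68, 0.56, 0.86 and 0.82 (0.73 ± 0.14) and was the most even of the 30 genes. Its values overlapped with those of HBM + S, where fish 3 and 4 had 0.62 and 0.75 and fish 1 and 2 had -0.85 and -0.81. In HBM + S its sign thus followed the dye layout.

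The E3 ubiquitin ligase LINCR had the largest mean and one of the narrowest spreads. Its log2 ratios in PPC + S were 3.37, 3.02, 3.60 and 3.14, a mean of 3.28 ± 0.26 or 9.74-fold. The size depended on the background correction, with 4.04 at a normexp offset of 0 and 4.17 from the authors' processed values. In the 16 fish of the other diets they lay between -0.14 and 0.11. E74-like factor 3, a transcription factor of epithelia, was also even, with 1.30, 1.64, 0.98 and 1.25 (1.29 ± 0.27), and exceeded the 15 other fish with a value, which ended at 0.76.

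The T-cell receptor beta chain, part of the antigen receptor of most T cells, had 2.15, 2.04, 2.74 and 0.86 (1.95 ± 0.79). It was highest in fish 3, the fish with the lowest values for factor D, MMP-9 and collagenase 3. TIM-4, which in mammals is a receptor of antigen-presenting cells, had 1.18, 1.53, 0.61 and 0.31 (0.91 ± 0.55). CD86, a ligand on antigen-presenting cells that co-stimulates T cells, had 1.01, 1.02, 0.65 and 0.37 (0.76 ± 0.31), outside the range of the other diets from -0.17 to 0.15. Its pool was well above background on 2 of 4 HBM + S arrays. CTLA4-like protein is named after the T-cell receptor that binds CD86 as a brake in mammals, and it had 1.09, 0.99, 0.51 and 0.84 (0.86 ± 0.26). In 1 RSM + S fish it reached 0.93.

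Of the 4 genes under exocytosis, 2 are known as subunits of another machine. RRP42 and Rrp46 belong to the RNA exosome, a ring of proteins that degrades RNA and is not a secreted vesicle. RRP42 had 0.96, 0.59, 0.69 and 0.62 in PPC + S (0.71 ± 0.17) and Rrp46 had 0.90, 0.71, 0.51 and 0.78 (0.72 ± 0.16). The 2 differed little in size and spread, with all 4 fish above the other 16, which ended at 0.55 and 0.50. Gelsolin, which severs and caps actin filaments, had 3.39, 2.58, 1.86 and 1.74 (2.39 ± 0.76), or 5.25-fold, the second largest mean of the 30. The beta subunit of the signal recognition particle receptor, which anchors that receptor in the endoplasmic reticulum for proteins entering the secretory route, had 1.82, 1.31, 0.50 and 0.82 (1.11 ± 0.58). The duplicate spots of a probe differed by medians of 0.03 to 0.39 over the 30 genes on the PPC + S arrays.

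**Figure D2:**
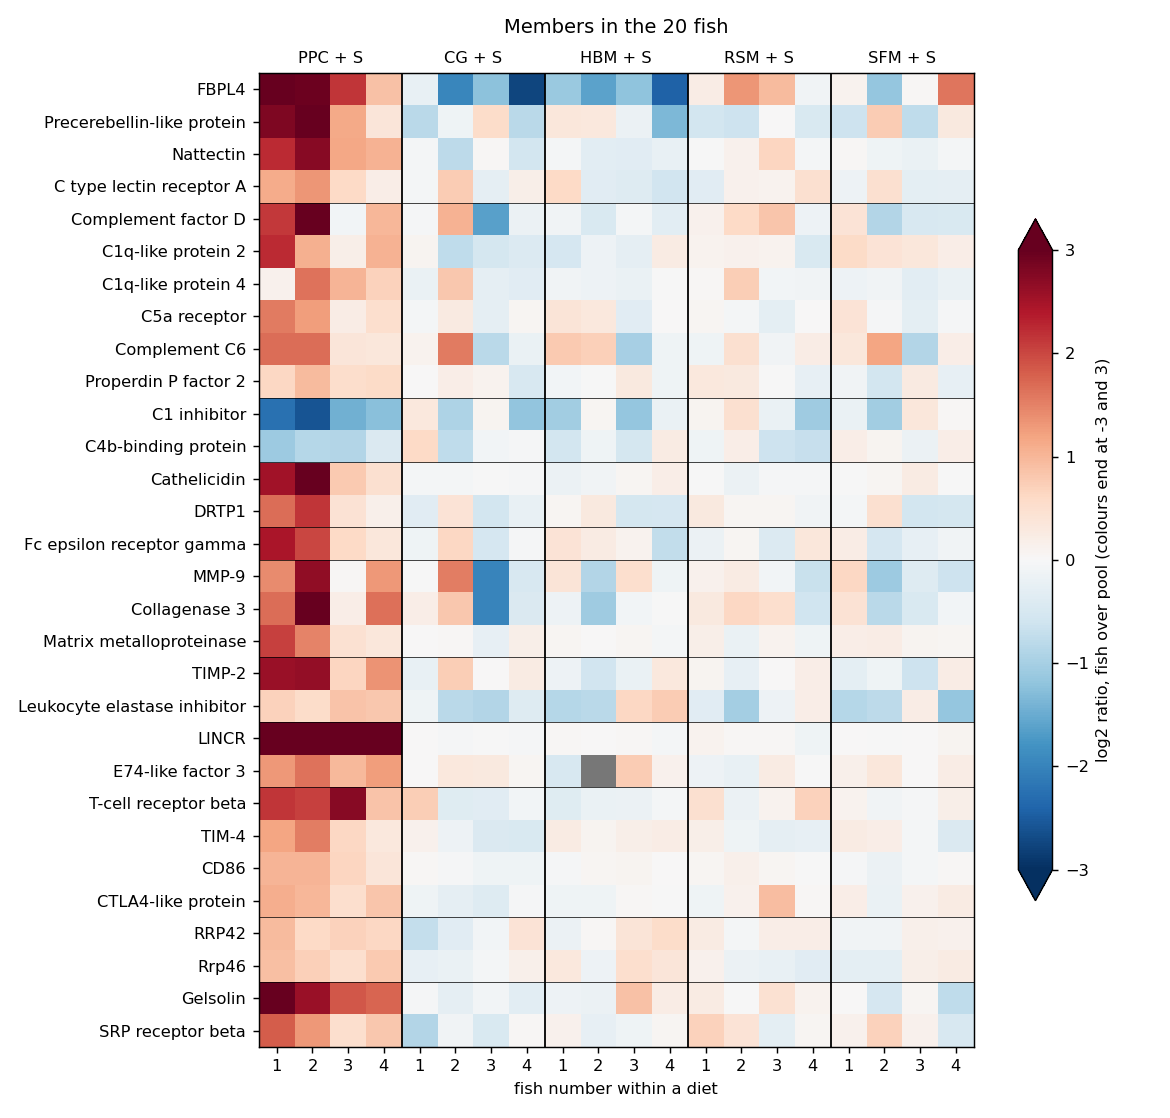
Log2 ratio of fish over pool for the 30 genes (rows, by role) in the 20 fish (columns, by diet, fish 1 to 4), red above and blue below the pool, with colours ending at -3 and 3 and the 1 missing value in grey. The PPC + S columns are red for the 28 genes listed as higher, except factor D in fish 3 at -0.09, with fish 1 and 2 both above fish 3 and 4 in 22 of the 28, and the FBPL4 row is blue in CG + S and HBM + S.

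Within PPC + S the difference between fish 1 and 2 and fish 3 and 4 ranged from wide to close to 0. In 22 of the 28 genes listed as higher, fish 1 and 2 both exceeded fish 3 and 4, an order found in 29.8% of all probes, while 31% had the opposite order. The highest value was in fish 2 for 15 genes, in fish 1 for 10, in fish 3 for 3 and in fish 4 for 0. The mean of fish 1 and 2 exceeded that of fish 3 and 4 by a median of 1.04 over the 28, against 0.07 for the same difference averaged over the other diets, and the median over all probes in PPC + S was 0.00. The difference was larger in PPC + S than in each other diet for 18 of the 30, beside 27% of all probes. It was widest for precerebellin-like protein, with 3.27 in fish 1 and 2 and 0.74 in fish 3 and 4, for cathelicidin, with 2.86 and 0.63, and for factor D, with 2.55 and 0.45. Complement C6 had 1.68 and 0.36, but fish 1 and 2 also exceeded fish 3 and 4 by a mean of 0.96 in the other diets. Among the genes toward the narrow end were LINCR (3.20 and 3.37), T-cell receptor beta (2.10 and 1.80), E74-like factor 3 (1.47 and 1.12), C1q-like protein 4 (0.88 and 0.85), leukocyte elastase inhibitor (0.62 and 0.84), RRP42 (0.78 and 0.65), Rrp46 (0.80 and 0.64), properdin P factor 2 (0.79 and 0.55), CTLA4-like protein (1.04 and 0.67) and, among those lower, C4b-binding protein (-0.97 and -0.66). Dye layout, tank and fish were not separated here, and their part in the difference was not tested. The genes were chosen for their change on these same PPC + S arrays, unlike the probes as a whole. The counts and medians set beside all probes are thus a description, and nothing is read from them.

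**Figure D3:**
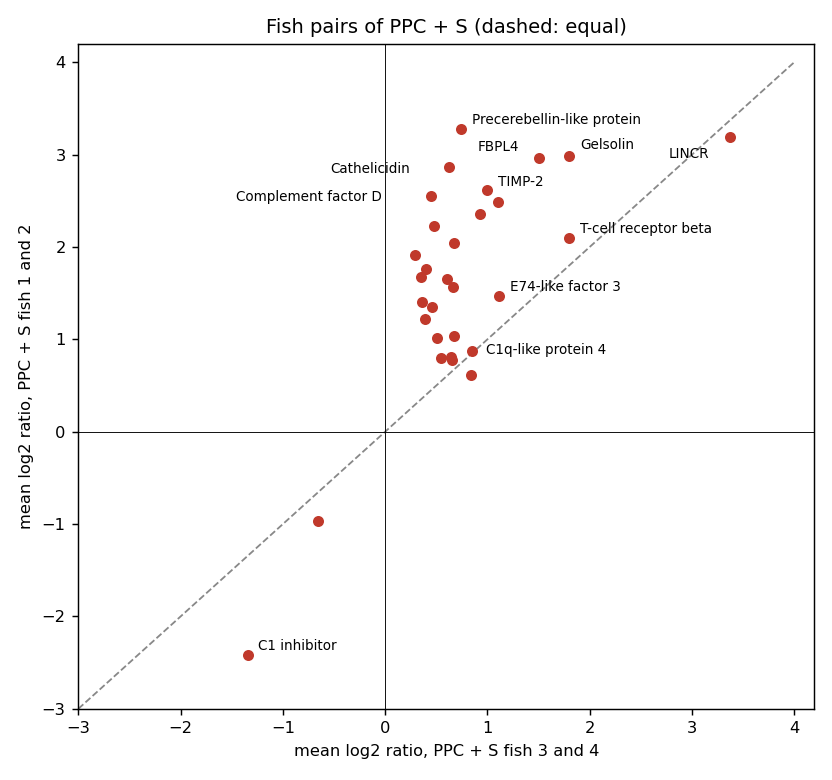
Mean log2 ratio of PPC + S fish 1 and 2 (vertical axis) against that of fish 3 and 4 (horizontal axis), 1 point per gene, with the dashed line where both are equal. Most genes lie above the line, while LINCR, T-cell receptor beta and C1q-like protein 4 lie close to it and C1 inhibitor lies below it with both means negative.

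Set against the other diets, all 4 PPC + S fish lay above all other fish for 12 of the 28 genes listed as higher, where 2.26% of all probes did. These were nattectin, properdin P factor 2, cathelicidin, matrix metalloproteinase, LINCR, E74-like factor 3, T-cell receptor beta, TIM-4, CD86, RRP42, Rrp46 and gelsolin. Cathelicidin was mostly near background outside PPC + S, which keeps its ratios there close to 0, so its place among the 12 carries no information. Fish 1 and 2 both did so for 25 of the 28, beside 11.3% of all probes, and fish 3 and 4 both for 13, beside 4.13%. In a limma model over the 20 arrays, PPC + S minus the mean of the other diets was past the limits for 28 of the 30, 26 higher and 2 lower, beside 6.49% of all probes (2.61% higher, 3.89% lower). The choice of the genes used the PPC + S values and fixes this count. It also favours fish above the other diets, so the counts of 12, 25 and 13 are a description. Nothing is read from any of these counts.

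The arrays of the other diets had no part in that choice and could be tested. None of the 30 genes was past the adjusted limits in CG + S, HBM + S, RSM + S or SFM + S, where 0.0175%, 0.0117%, 0.0175% and 0.0117% of all probes were, by limma with each diet alone. Cathelicidin was mostly near background for fish and pool in these diets, so its ratios there could show little. The median log2 change of the 28 genes was -0.13, -0.04, 0.07 and -0.05 in these diets. Without adjustment 1 gene was past the limits in CG + S (0.210% of all probes) and 1 in HBM + S (0.281%), and 0 in RSM + S (0.468%) and SFM + S (0.281%). Averaged over the 4 diets, 0 of the 30 were past the limits with or without adjustment, beside 0.00584% and 0.0935% of all probes. The number of arrays limits what such a test can find. On simulated ratios with the spreads of these arrays, a log2 change of 1 given to 200 probes in all 4 diets was called in that average for 99.5% of them, a change of 2 in HBM + S alone for 91.5%, and a change of 1 in a single diet, simulated for PPC + S, for 71.5%. The last share used the PPC + S spreads, so it does not give the recovery in another diet. The simulated noise was independent between arrays and had no dye layout, unlike the arrays themselves. The shares also hold only for 200 changed probes. Outside PPC + S just 2 or 3 probes passed the adjusted limits in a diet, and with so few the adjustment is stricter. Recovery of a change in few probes was not simulated and would be lower, as it would for a gene with a wide spread such as FBPL4.

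The gene past the unadjusted limits in both CG + S and HBM + S was FBPL4, which lay below its pool in 4 of 4 fish of both diets. All 4 fish lay below the pool for 6.29% of all probes under CG + S, for 5.85% under HBM + S, for 6.89% under RSM + S and for 4.7% under SFM + S. In CG + S and HBM + S, 0.199% and 0.240% of all probes were lower past the unadjusted limits. In CG + S it had log2 ratios of -0.22, -1.96, -1.23 and -2.76, a mean of -1.54 (limma SE 0.40, unadjusted p = 0.00931, adjusted p = 0.916). In HBM + S it had -1.12, -1.61, -1.20 and -2.43, a mean of -1.59 (limma SE 0.24, unadjusted p = 0.000988, adjusted p = 0.656). The RSM + S fish had 0.23, 1.32, 0.96 and -0.10, and the SFM + S fish 0.11, -1.15, 0.04 and 1.61. In CG + S, HBM + S and SFM + S the FBPL4 probe was well above background for the fish on 3 of 4 arrays. For the pool it was so on 4 of 4, so its ratios there rest in part on a fish value near background. No value of CG + S or HBM + S overlapped with those of PPC + S, whereas RSM + S and SFM + S fish overlapped with PPC + S fish 4. Neither difference passed the adjustment over all probes. With the dyes as stated the means were 0.45 in CG + S and 0.23 in HBM + S, so the direction in these diets rests on the turned arrays.

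A test for differences among the 4 other diets was past the adjusted limit for 0 of the 30 genes, beside 0.0234% of all probes, and 2 passed without adjustment, beside 5.01%. These were FBPL4, with a span of 2.19 between its highest and lowest diet mean (limma F test, unadjusted p = 0.00271, adjusted p = 0.810), and C1q-like protein 2, with a span of 0.78 (unadjusted p = 0.00754, adjusted p = 0.853). C1q-like protein 2 had 0.57, 0.40, 0.35 and 0.20 in SFM + S and 0.09, -0.77, -0.53 and -0.40 in CG + S. The share of 2 in 30 is near the background.

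**Figure D4:**
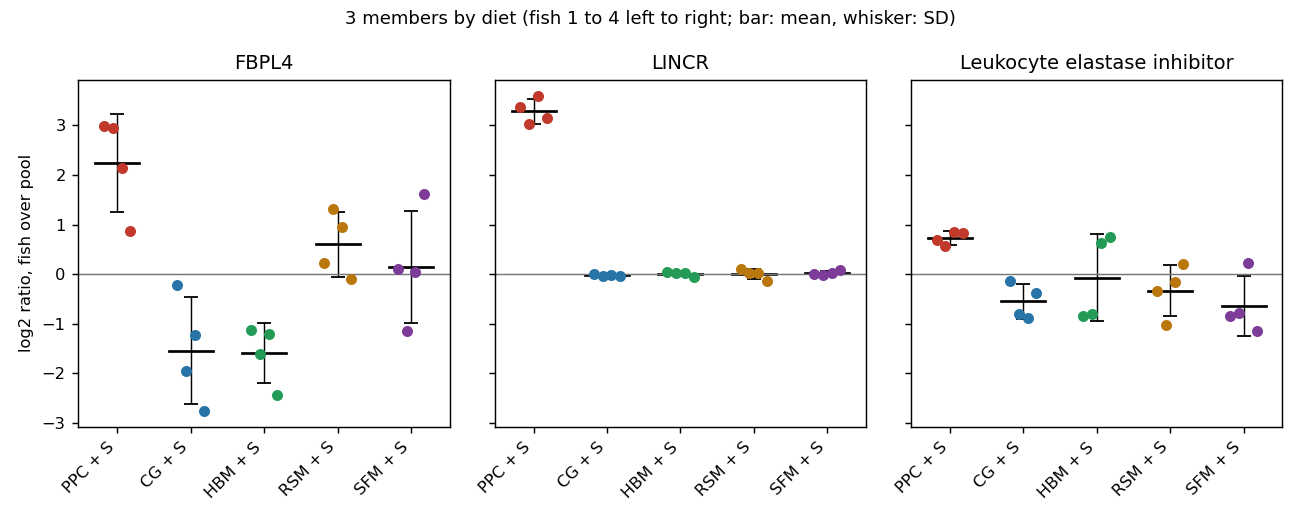
Log2 ratio of fish over pool (vertical axis) for FBPL4, LINCR and leukocyte elastase inhibitor in the 5 diets (horizontal axis), with a point per fish, the mean as a bar and the SD as a whisker. FBPL4 lies below the pool in all 8 CG + S and HBM + S fish, LINCR departs from the pool only in PPC + S among these diets, and leukocyte elastase inhibitor is at 0.56 to 0.86 in PPC + S and mostly below 0 elsewhere.

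Leukocyte elastase inhibitor was below the pool in most fish outside PPC + S. It had -0.13, -0.80, -0.89 and -0.38 in CG + S, -0.34, -1.03, -0.16 and 0.21 in RSM + S and -0.85, -0.78, 0.22 and -1.15 in SFM + S. In HBM + S it had -0.85, -0.81, 0.62 and 0.75. Its mean over the 4 diets was -0.40 (limma SE 0.14, unadjusted p = 0.0135, adjusted p = 0.505), and it was past the limits in none of these 4 diets. C1 inhibitor, lower in PPC + S, had a mean of -0.35 over the 4 diets (unadjusted p = 0.0353, adjusted p = 0.586), with values from -1.18 to 0.49.

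How far the genes moved together was examined in the 16 fish outside PPC + S, as deviations from the mean of each diet. Over all pairs of the 30 genes the median Pearson's r was 0.02, and 6 pairs had r over 0.8. The 3 highest joined factor D, MMP-9 and collagenase 3, with r = 0.93 for each pair. Spearman's rho was 0.90 for factor D with collagenase 3, 0.83 for factor D with MMP-9 and 0.83 for MMP-9 with collagenase 3. Fish of opposite dye layout are not exchangeable, so the difference between layouts was taken out as well, which also makes the values independent of the turning. Pearson's r was then 0.94, 0.91 and 0.87 and rho 0.94, 0.91 and 0.84 in the same order of pairs. An exact test over all arrangements that exchange the 2 fish of a diet and layout gave two-sided p of 0.0234, 0.0156 and 0.0547 for r and 0.0156, 0.0156 and 0.0547 for rho. The smallest p this test can give is 0.0078, and after adjustment over all pairs of the 29 genes measured in all 16 fish no pair was under 0.05 (0.793 for r and 0.825 for rho in these 3). The 3 pairs, noticed after their values were seen, are thus a description. With the layouts left in and the 2 fish farthest from the median left out, r was 0.82, 0.80 and 0.85.

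The relation rested in part on CG + S, where fish 2 had 1.05 for factor D, 1.53 for MMP-9 and 0.82 for collagenase 3, and fish 3 had -1.63, -1.97 and -1.98. Among 16801 probes, the partners of a gene ranked between 2 and 4 by r, and between 6 and 44 without the layout difference. The 3 probes share arrays and pools, so noise of an array enters each of them. In PPC + S fish 3, where most genes were above the pool, the same 3 genes stood at -0.09, 0.03 and 0.20, and in fish 2, the highest for each of them, at 2.99, 2.67 and 3.04. TIMP-2, the metalloproteinase inhibitor, had r of only 0.24 to 0.30 with the 3 genes in the 16 fish. With the layouts left in, complement C6 with DRTP1 (0.84) and C1q-like protein 2 with C4b-binding protein (0.82) also had r over 0.8, as did a pair with cathelicidin, which was near background in these fish and is not read. Without the layout difference, r was 0.63 for complement C6 with DRTP1 and 0.83 for C1q-like protein 2 with C4b-binding protein. In that setting 8 pairs had r over 0.8, so such values were not particular to the 3 genes. Among them were leukocyte elastase inhibitor with TIM-4 and precerebellin-like protein with E74-like factor 3 (0.86 each). Properdin P factor 2 with gelsolin had 0.83 and complement C6 with TIMP-2 had 0.82.

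**Figure D5:**
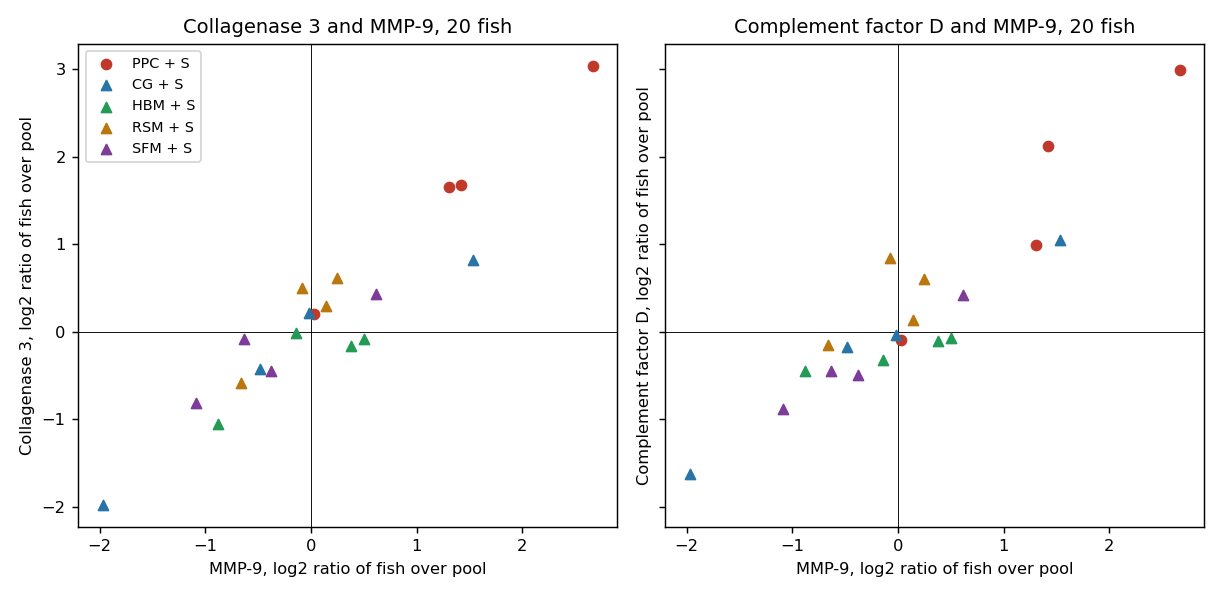
Log2 ratio of fish over pool of collagenase 3 (left) and complement factor D (right) on the vertical axes against MMP-9 on the horizontal axes, in the 20 fish, coloured by diet with PPC + S as circles. Points run along 1 line from CG + S fish 3 at the lower left to PPC + S fish 2 at the upper right, and PPC + S fish 3 lies near the crossing of the axes.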

How the data were processed

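Each fish was compared with a control pool on a 2-colour array. The authors deposited median intensities of spots and local backgrounds (Feature Extraction 10.7.1.1 per the file headers, 9.6.1 in the submitters' processing notes), log10 ratios of the scanner software, and Lowess-normalized log2 ratios. The methods name another scanner and program. Here outlier spots (2.02% to 3.81% per array) were left out, limma's normexp (offset 50) and loess were applied, arrays 3 and 4 of each diet were turned, and duplicate spots were averaged (44061 spots, 1417 of them controls). Probes entered the tests if 1 or both channels were well above background on 3 or more of the 4 arrays of some diet (17111 of 21322, and 11299 in both channels on all arrays). Of the 30 genes, 20 were so on all 20 arrays for fish and pool, and 28 on the PPC + S arrays.

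Separate fits tested the arrays of a diet against 0 (limma 3.58.1, R 4.3.3, with data.table at version 1.17.8). The mean of the 4 other diets and their differences were fitted over 16 arrays, and PPC + S minus that mean over 20. All tests treat fish as independent although pairs of them shared a tank. Arrays of a diet share a slide, so slide and diet cannot be told apart. The tests were run on simulated data with 200 changed probes among 16745. There 40 unchanged probes were called for the difference among the 4 other diets and 40 for PPC + S minus their mean. For PPC + S alone, the mean of the 4 diets and HBM + S alone the false calls were 3, 0 and 3. Figures used Python 3.11.15, pandas 2.3.3 and matplotlib 3.10.9.

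The genes and lists were chosen with earlier results of these data known, and the study chose the genes on the same arrays, so PPC + S values are a description and counts past the limits there are fixed by that choice. Every gene tied to 1 probe is named. Of the 256 entries listed by the study, 236 had 1 probe and 234 an unshared one. None of the 30 probe identifiers was among the RefSeq accessions used, and no sequences are shown. Alternatives concerned background correction, normalization, filter, test, dyes and each fish left out. Whether fish numbers pair the arrays was examined from deviations over all probes: the median r was 0.30 for the same number (0.05 to 0.62), 0.20 for another number of the same dye layout and -0.25 across layouts, and nothing in the labels pairs them.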

Additional observations from a re-analysis of the deposited data

Results flagged for a closer look

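In 4 cases 1 fish stood far from the others of its group, among 149 groups of 4 fish examined, where chance alone gives about 1 in 20. C1q-like protein 2 had -0.46 in RSM + S fish 4, against 0.10 to 0.12 in the other fish. C1q-like protein 4 had 0.80 in CG + S fish 2, on a probe well above background for 1 of 4 fish there. Cathelicidin had -0.17 in RSM + S fish 2, on a probe near background. Collagenase 3 had -1.06 in HBM + S fish 2, where MMP-9 had -0.88.

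In 13 comparisons every PPC + S fish was on 1 side of its pool and every fish of another diet on the other side, a difference that was not tested. The choice of the genes favoured the PPC + S side, so each comparison comes down to 4 of 4 fish lower in the other diet. FBPL4 had means of -1.54 in CG + S and -1.59 in HBM + S. Leukocyte elastase inhibitor had -0.55 in CG + S and collagenase 3 -0.33 in HBM + S. In CG + S, CTLA4-like protein had -0.21, gelsolin -0.18, cathelicidin -0.04 and LINCR -0.02. Cathelicidin and LINCR were thus at the level of the pool, and cathelicidin was mostly near background outside PPC + S. In HBM + S, nattectin had -0.23, T-cell receptor beta -0.20 and C1q-like protein 4 -0.12. C1q-like protein 4 had -0.19 in SFM + S, where the fish channel was well above background on 0 of 4 arrays, and cathelicidin -0.06 in RSM + S. The share of all probes with all 4 fish lower than the pool was 6.29% for CG + S, 5.85% for HBM + S, 6.89% for RSM + S and 4.70% for SFM + S.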

How the results depend on the processing

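The 13 genes past the limits in PPC + S became 22 with a normexp offset of 0, 28 with a dye term, 29 without adjustment, 27 in 1 fit of all 20 arrays, 0 by the methods' t-test after Benjamini-Hochberg and 0 with the dyes as stated. With each fish left out they were 0 to 4, beside 0.00584% to 1.09% of all probes. Without adjustment they were then 17 to 29. These counts were added after seeing the data. PPC + S minus the other diets gave 18 of the 20 genes left when only probes well above background everywhere were kept, 0 with the dyes as stated, and 21 to 29 with each fish left out. The genes were selected on the PPC + S arrays, and shares of all probes are not given for most of these settings. Nothing is read from these counts or from how they differ. The single genes past the limits outside PPC + S were FBPL4, without adjustment (1 in CG + S, 1 in HBM + S) and by the methods' t-test unadjusted (1 in HBM + S), and leukocyte elastase inhibitor in HBM + S with the dyes as stated (1, at -0.76, limma adjusted p = 0.0229). For the t-test and for the dyes as stated, the share of all probes is not given here. With each fish left out, all other diets, their mean and their differences stayed at 0.

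The median of the 28 genes was 1.69 in PPC + S with the scanner software's ratios and 0.52 with the dyes as stated (0.95 to 1.36 with each fish left out). For proteases, inhibitors and T-cell genes it was 1.86 and 0.25 (0.95 to 1.40), and for exocytosis 1.29 with median centring and 0.27 with the dyes as stated (0.77 to 1.06). For effectors it was 0.98 to 1.45 with each fish left out, and their value with the dyes as stated is not given here. In CG + S the median of the 28 was -0.26 with an offset of 0, -0.25 with the scanner's ratios and 0.08 with the dyes as stated (-0.19 to -0.05), in HBM + S -0.09 to 0.00, in RSM + S 0.14 with the scanner's ratios (0.01 to 0.10), and in SFM + S 0.05 with the dyes as stated (-0.06 to -0.01). With the dyes as stated LINCR turned to -0.09 and leukocyte elastase inhibitor to -0.11. The construction of that setting, fish 3 and 4 with the opposite sign, accounts for these. For the others the cause was not tested. Fish number as a replicate block left 0 genes past the limits in the mean of the other diets and 0 in their differences, and gave 29 in PPC + S minus the other diets, with all 28 kept and complement C6 added. In 18 of 20 arrays the best partner in another diet had the same number, which is a hint from the data and not a pairing in the design. Signal over background limits cathelicidin and C1q-like protein 4 most, and in HBM + S also the pools of CD86 and matrix metalloproteinase (2 of 4 arrays each). It also touches FBPL4, well above background for the fish on 3 of 4 arrays in CG + S and in HBM + S. The fold of a gene in PPC + S moved by over 1.5 times for 10 of the 30 with an offset of 0, for 12 with the scanner's ratios and for 2 with the authors' processed values, each time away from the pool, and for 20 toward or past it with the dyes as stated. For factor D, MMP-9 and collagenase 3, a permutation of fish within a diet that ignores the dye layout gave an adjusted p of 0.0365 for each pair. The exact test that keeps the layout, added after seeing the data, gave 0.793. Its few arrangements all but fixed that outcome, so the difference between the tests is not read. With an offset of 0, matrix metalloproteinase was at 2.02, CTLA4-like protein at 1.58, CD86 at 1.38 and FBPL4 in HBM + S at -2.70.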
